A study of Mus musculus with 2 samples.

Results

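The Dppa genes and a set of other marker genes of embryonic stem (ES) cells were examined in mouse E14 ES cells before and after differentiation with retinoic acid. The members were chosen by gene symbol: Dppa2, Dppa3, Dppa4, Dppa5a, Zfp42, Fbxo15, Tcl1, L1td1 and Spp1, 9 of the 34376 genes in the deposited gene table, where they stand in capitals as DPPA2, DPPA3, DPPA4, DPPA5A, ZFP42, FBXO15, TCL1, L1TD1 and SPP1. They have 12 of the 55830 promoter groups and 23 of the 83402 transcripts in the companion tables. One library was made from each of the 2 cultures, and each library was read on 2 lanes. The Undifferentiated culture was kept on mitomycin C treated mouse embryonic fibroblasts in 15% fetal bovine serum with leukemia inhibitory factor at 1000 u/ml. The Differentiated culture, described in the labels as a mixed population, was plated without a feeder layer in 10% serum with 0.1 µM all-trans-retinoic acid and collected after 4.5 days. Both came from the E14 line of strain 129P2/OlaHsd at passage 29. The labels put remaining feeder cells below 0.25%, and dead cells at around 2% of the Undifferentiated and 8% of the Differentiated cells.

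Dppa stands for developmental pluripotency associated, a name given to genes found by their expression in the early embryo, germ cells and ES cells. The Dppa proteins are not 1 family by sequence. Dppa2 and Dppa4 are DNA-binding proteins with a SAP domain that work as a pair on chromatin. Dppa3, also called Stella, is a maternal protein that guards DNA methylation in the zygote, and Dppa5a is a small protein with an RNA-binding KH domain. Zfp42, known as Rex1, is a zinc finger protein related to Yy1. Fbxo15 is an F-box protein, the substrate-recognising part of an SCF ubiquitin ligase, and its locus is known as a reporter of reprogramming. Tcl1 is a coactivator of Akt kinases, L1td1 is an RNA-binding protein that descends from a LINE-1 element, and Spp1 encodes osteopontin, a secreted protein that binds integrins and CD44. Several of these genes are textbook targets of the ES cell factor Pou5f1 (Oct4), which binds an octamer motif.

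Promoter sequence from the RefSeq table of build GRCm38.p6 was searched for 4 of the 9 members (L1td1, Spp1, Tcl1 and Zfp42), with 5 start sites. Dppa2, Dppa3, Dppa4 and Dppa5a had no sequence there, and Fbxo15 was left out of the search. The sequences shown are the 250 bases before the start of Zfp42 (chr8:43307010-43307259, minus strand) and before both starts of Spp1 (chr5:104434861-104435110 and chr5:104435942-104436191, plus strand). They are shown because Zfp42 and Spp1 were high in ES cells and because they show where the octamer occurs. All are written 5′ to 3′ on the strand of the gene, and capitals mark the octamer, ATTTGCAT or its reverse complement ATGCAAAT.
Zfp42: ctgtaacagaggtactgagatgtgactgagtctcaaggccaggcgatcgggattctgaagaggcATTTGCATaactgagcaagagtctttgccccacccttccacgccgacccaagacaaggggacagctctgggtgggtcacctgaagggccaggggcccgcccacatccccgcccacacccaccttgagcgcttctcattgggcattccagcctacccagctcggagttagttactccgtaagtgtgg
Spp1, upstream start: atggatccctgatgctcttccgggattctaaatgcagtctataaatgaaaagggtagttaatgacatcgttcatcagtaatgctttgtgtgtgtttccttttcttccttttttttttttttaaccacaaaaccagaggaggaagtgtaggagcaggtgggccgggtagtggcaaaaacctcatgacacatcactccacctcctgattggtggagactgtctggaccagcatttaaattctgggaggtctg
Spp1, downstream start: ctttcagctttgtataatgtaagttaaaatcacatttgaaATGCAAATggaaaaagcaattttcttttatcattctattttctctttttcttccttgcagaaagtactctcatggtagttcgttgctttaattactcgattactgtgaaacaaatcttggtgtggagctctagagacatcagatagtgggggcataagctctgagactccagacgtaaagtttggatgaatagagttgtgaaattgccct
The octamer lay 186 to 179 bases before the start of Zfp42 and 210 to 203 bases before the downstream start of Spp1. It was present in 2 of the 5 windows, and in 526 of all 32851 promoter windows of the same length (1.60%), both strands searched. The window of the upstream Spp1 start holds the TATA letters TATAAA at 211 to 206 bases before the start, which 12.4% of all windows also hold on either strand. GC boxes (GGGCGG) were found in 2 of the 5 windows, those of Zfp42 and Tcl1, against 32.7% of all. The letters CATTGTT (3.29% of all windows) and TCAAGGTCA (0.387%) were found in 0 of the 5. These are matches of letters in a window and are not measured binding.

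Expression levels are the authors' deposited values, read here as RPKM, reads scaled by the length of the gene model and the size of the lane. A ± value gives the SD over both lanes of 1 library. Ratios are log2 of (Differentiated RPKM + 1) over (Undifferentiated RPKM + 1). With 1 library per group there is no replicate culture and no test, and the spread between lanes reflects the sequencing run and the assignment of reads, not the cultures. If the unit is RPKM, the depth recovered from the values was about 32000000 to 37800000 reads a lane. At that depth a gene of 1 kb with 1 RPKM has some 32 to 37.8 reads. The labelled cell type was checked against its markers. All 7 core ES cell factors were present in the Undifferentiated library, with a summed level of 1526 and 1543 RPKM in its lanes against 182 and 168 RPKM in the Differentiated lanes.

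After differentiation all 9 members were lower by 2-fold or more, and 0 were higher. Among the 18019 genes at 1 RPKM or more in either library, 8.46% were at least 2-fold lower and 19.1% at least 2-fold higher, 27.6% in all. The members' median log2 ratio was -3.15, against 0.12 for all those genes. At least 8-fold lower were 6 of the 9 members (Tcl1, Zfp42, Spp1, Dppa5a, Fbxo15 and Dppa3), against 0.622% of all genes. With the pseudocount of 1, a ratio of 32-fold or lower was reached by 0.0555% of all genes and by 0 members, although in RPKM without it Tcl1 was 99.6-fold and Dppa3 73.6-fold lower. The members' summed level was 3043 RPKM before and 297 RPKM after, and in each member the lanes of both libraries did not overlap. Most of that sum was Dppa5a (2054 and 210 RPKM), whose level is uncertain because near-identical copies share reads. The genes are known ES cell markers and were picked as such, with earlier results of these data known, so the direction is a description and not independent evidence. In bulk RNA, fewer expressing cells and less RNA per cell cannot be told apart.

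**Figure D1:**
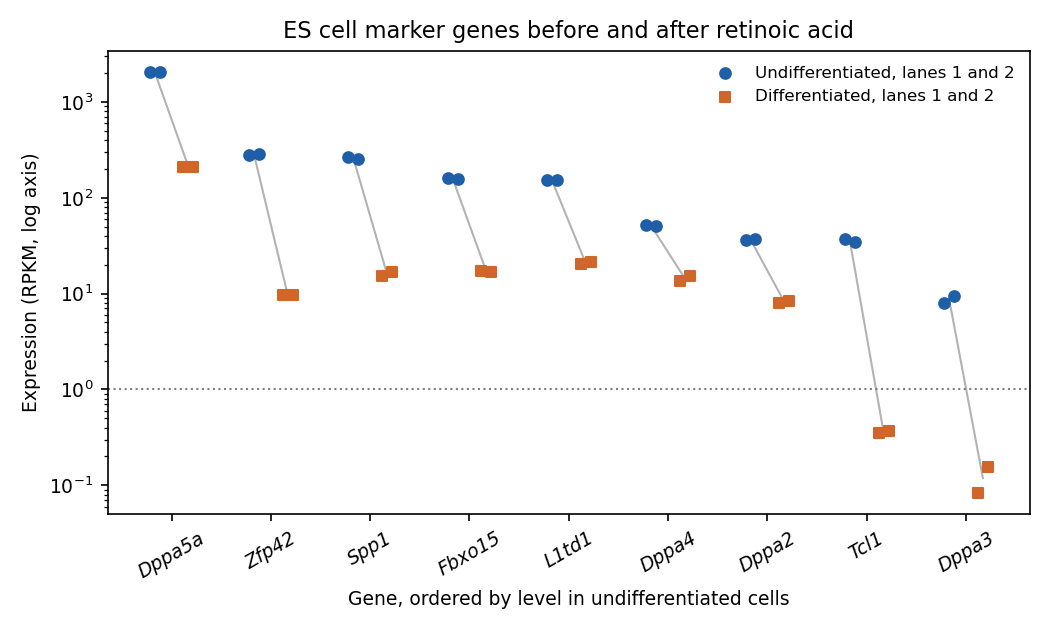
RPKM of each marker gene in the 4 lanes, on a log axis, with blue circles for Undifferentiated and orange squares for Differentiated lanes, a grey line joining the library means and a dotted line at 1 RPKM. Each gene's Undifferentiated lanes lie above its Differentiated lanes, from 2054 to 210.4 RPKM for Dppa5a and from 8.78 to 0.119 RPKM for Dppa3.

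**Figure D2:**
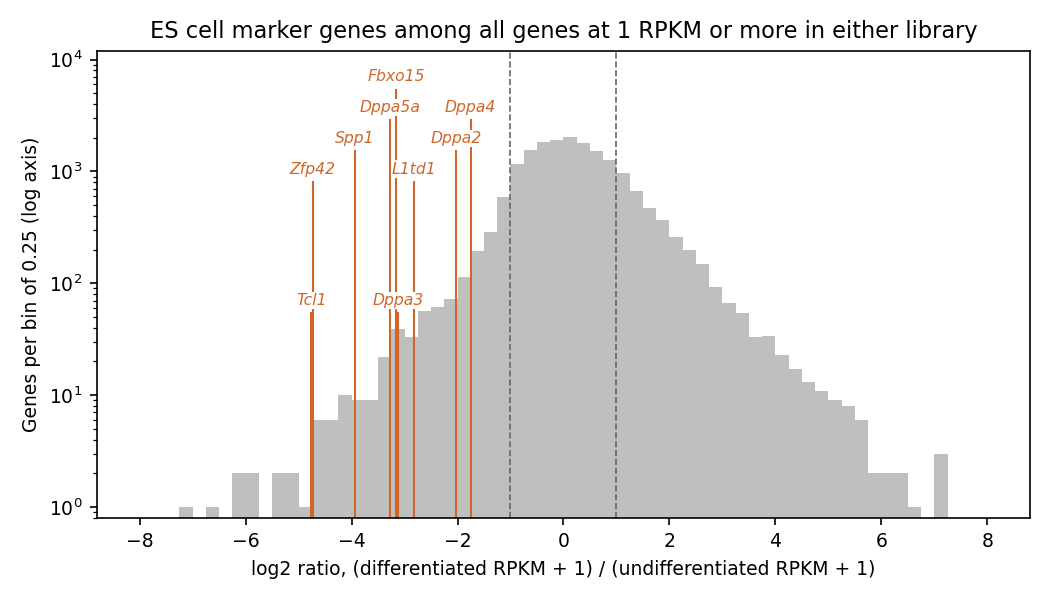
Histogram of log2 ratios over the 18019 genes at 1 RPKM or more in either library (log count axis), with the 9 marker genes as labelled lines and dashed lines at 2-fold. The marker genes lie between -4.76 (Tcl1) and -1.75 (Dppa4), to the left of the lower dashed line.

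The neighbouring genes Dppa2 and Dppa4 kept the largest shares of their level. Dppa2 (chromosome 16, 48310387 to 48319836, plus strand, build mm9) stood at 36.3 and 37.0 RPKM in the Undifferentiated lanes and at 8.03 and 8.41 RPKM in the Differentiated lanes. Dppa4 (chromosome 16, 48283848 to 48294405, plus strand, mm9) stood at 51.5 and 50.3 RPKM before and at 13.5 and 15.2 RPKM after. The lanes of each library lay close together and far from those of the other. Dppa2 was 4.45-fold lower, with a log2 ratio of -2.03. Dppa4 was 3.54-fold lower, with a log2 ratio of -1.75, and kept 28.3% of its Undifferentiated level, the highest share among the 9 members. The level of Dppa4 relative to Dppa2 was 1.42 and 1.36 before and 1.68 and 1.81 after, lane by lane, so Dppa2 was reduced by the larger factor. Their models lie 15981 bases apart, and no other gene with an informative symbol lay within 100000 bases of either.

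Dppa4 was deposited in 3 transcript forms, and its main form held 90.9% of the gene's level before and 88.2% after. A shorter form held 6.43% and 9.10%. The stretch below is shown because it is what separates these forms: 156 coding bases of the main form, taken from the spliced transcript between positions 48289101 and 48289378 of chromosome 16 (GRCm38), that the shorter form lacks.
Dppa4, main form only: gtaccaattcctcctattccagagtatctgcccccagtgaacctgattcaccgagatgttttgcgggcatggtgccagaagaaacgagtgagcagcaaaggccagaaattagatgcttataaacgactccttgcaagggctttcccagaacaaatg
The remaining form held 2.66% before and 2.70% after. Its share was 2.6995% in lane 1 of the Undifferentiated library and in both Differentiated lanes. So equal a share is not counted as a repeated measurement, and how reads were divided between forms is not known here. The order of the 3 forms was the same in all 4 lanes, and the shorter form lay between 5.94% and 6.92% in the Undifferentiated lanes and between 9.02% and 9.19% in the Differentiated lanes.

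Genes linked to Dppa2 and Dppa4 as activators of the early embryonic genome were taken from a list of genes of the cleavage-stage embryo. Of its 8 genes at 1 RPKM or more, 0 were 2-fold lower and 0 were 2-fold higher, with a median log2 ratio of 0.60. Zscan4c, a gene of the ES cell telomere programme, stood at 21.3 ± 1.22 RPKM before and 35.5 ± 1.20 RPKM after. Zscan4f stood at 13.3 RPKM and 22.9 RPKM, and Tmem92-ps at 2.55 RPKM and 1.32 RPKM. The Zscan4 genes are near-identical copies that share reads, so values for single copies are uncertain. They are most of the 8 genes counted, so the count and the median rest largely on this family. Dux (0.726 to 0.313 RPKM) and Zfp352 (0.584 to 0.188 RPKM) lay below 1 RPKM and were not counted. Both are named after their values were seen. None of the counted genes passed the 2-fold line that both Dppa2 and Dppa4 passed, and the difference itself could not be tested.

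Dppa5a was the most abundant member in both libraries. It (chromosome 9, 78214859 to 78216006, minus strand, mm9) stood at 2062 and 2047 RPKM in the Undifferentiated lanes, which ranked it 26 of all genes, and at 211 and 209.7 RPKM in the Differentiated lanes, at rank 758. The lanes differed by far less than the libraries. Dppa5a was 9.76-fold lower, with a log2 ratio of -3.28 in each lane pair, and its remaining 210.4 RPKM was higher than the Undifferentiated level of every other member except Zfp42 and Spp1. The copy Dppa5c, which RefSeq lists as a pseudogene, stood at 954.5 ± 11.4 RPKM before and 97.7 ± 0.342 RPKM after, summed over 2 loci. Of this, 952 RPKM before and 97.3 RPKM after came from a locus 120434 bases from Dppa5a, and 2.77 RPKM and 0.356 RPKM (log2 ratio -1.47) from one 93988 bases away. The summed level was 0.465 of that of Dppa5a before and 0.464 after. Near-identical copies share reads, so the level of Dppa5a itself is uncertain, and its ratio equals that of the summed copy (-3.28).

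The maternal gene Ooep, which belongs to the subcortical maternal complex of the egg and lies 7909 bases from Dppa5a, stood at 76.7 and 77.5 RPKM before and at 3.97 and 6.31 RPKM after, a log2 ratio of -3.67. Of the list of KH-domain relatives and partners in that complex, 3 genes reached 1 RPKM, of which 2 were lower and 0 higher, with a median of -3.67. Khdc3, another KH protein, deposited under an older symbol, stood at 18.1 ± 1.95 RPKM before and 0.0570 ± 0.0287 RPKM after. Tle6 stood at 6.49 RPKM and 4.28 RPKM, within 2-fold. Other genes near Dppa5a differed less, with Ddx43 at 4.81 RPKM and 2.15 RPKM and Mto1 at 6.90 RPKM and 12.3 RPKM. Gsta1 stood at 0.329 and 25.5 RPKM in the Differentiated lanes, so its ratio rests on 1 lane.

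Dppa3 was the least abundant member and almost absent after differentiation. It (chromosome 6, 122576428 to 122580290, plus strand, mm9) stood at 8.07 and 9.50 RPKM in the Undifferentiated lanes and at 0.0833 and 0.155 RPKM in the Differentiated lanes. That is about 535 reads against 6 over both lanes, from transcript lengths in GENCODE M21, which limits the precision of each Dppa3 value in the Differentiated library. Its level after was 1.27% of that before, with a 95% Clopper-Pearson interval of 0.465% to 2.79%, or 78.5-fold lower (35.8 to 215). This interval treats reads as independent draws, which reads without molecular identifiers are not. It does not cover differences between cultures. On the log2 scale with a pseudocount the ratio was -3.13, which understates the difference of so low a gene. The second of its 2 promoters held 4.86% of its level before. After differentiation that share was 95.0% in 1 lane and 0% in the other, which rests on about 6 reads.

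Dppa3 lies in a cluster with other genes of ES cells and germ cells on chromosome 6. Gdf3, a TGF-beta family ligand 16322 bases away, stood at 20.1 and 20.3 RPKM before and at 1.47 and 1.59 RPKM after (log2 ratio -3.07). Nanog, a core ES cell factor 77216 bases away, stood at 141 and 138 RPKM before and at 4.38 and 1.55 RPKM after (-5.15), and the overlapping model Nanogpd, which shares its sequence, had a ratio of -4.36. Apobec1, an RNA-editing deaminase, had 2.20 RPKM before and 0.606 RPKM after, which is 3.63-fold lower in RPKM and falls just within 2-fold (-0.995) only through the pseudocount of 1. Not all genes of the cluster were lower: the glucose transporter gene Slc2a3, 97536 bases away, had 356 RPKM before and 415 RPKM after, and Mfap5 had 2.00 RPKM and 2.43 RPKM.

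**Figure D3:**
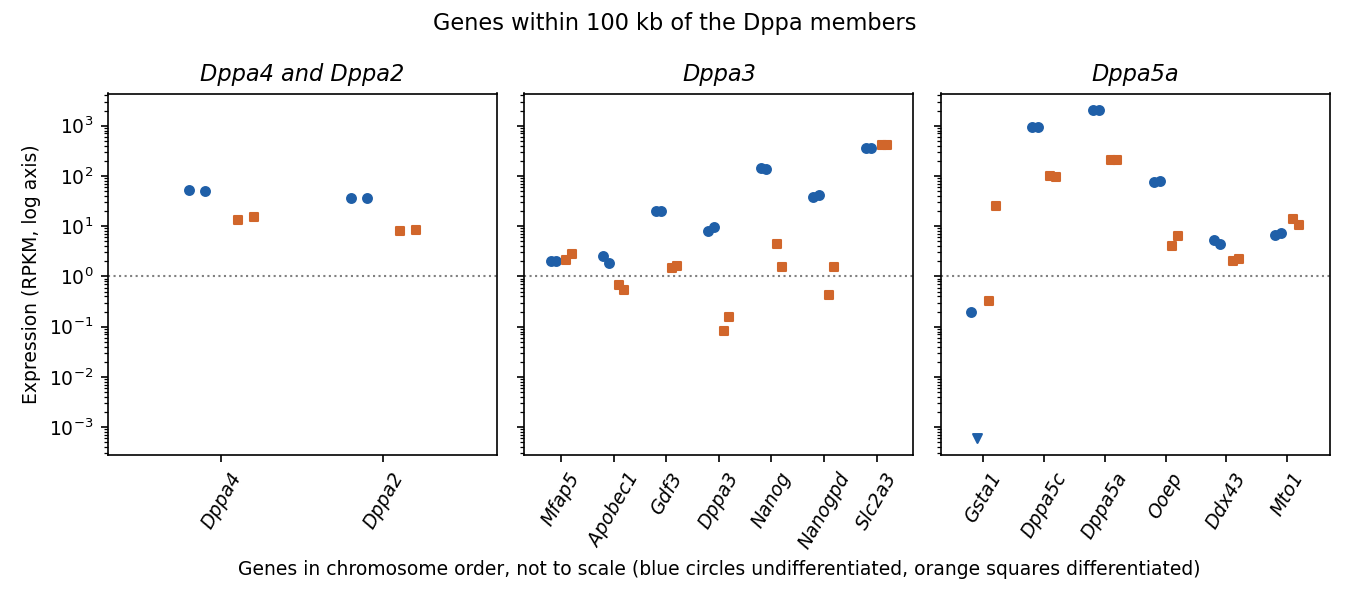
RPKM in the 4 lanes (log axis) of the Dppa genes and of the genes at 1 RPKM or more in either library within 100000 bases of them, in chromosome order (Dppa5c as the sum of its 2 loci), with a dotted line at 1 RPKM and a triangle at the lower edge for a lane at 0. Gdf3 and Nanog beside Dppa3 and Ooep beside Dppa5a are lower in both Differentiated lanes, while Slc2a3 (356 and 415 RPKM) is not.

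Around all members, 24 other genes with informative symbols lay within 100000 bases. Of the 15 at 1 RPKM or more, 5 were at least 2-fold lower, 2 were at least 2-fold higher and 8 lay between. Of all 18019 genes at that floor, 8.46% were at least 2-fold lower and 19.1% at least 2-fold higher. The 5 lower genes were Gdf3, Nanog and Nanogpd beside Dppa3, and Ooep and Dppa5c beside Dppa5a. Dppa5c is counted there on its sum, most of which came from a locus outside that distance. Its locus within that distance was also more than 2-fold lower, at 2.77 RPKM before. Nanogpd shares sequence with Nanog, and Dppa5c is a copy that shares reads with Dppa5a, so neither is a separate observation. The 2 higher genes were Gsta1, whose ratio rests on 1 lane, and Inadl.

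The DNA methylation genes listed beside Dppa3, not all of which are known to act with it, differed in direction among themselves. Of 8 at 1 RPKM or more, 3 were lower, 1 was higher and 4 lay between, with a median of -0.60. Tet1 and Tet2, dioxygenases that oxidise methylcytosine, were lower at 18.8 to 2.77 RPKM (-2.39) and 21.7 to 5.79 RPKM (-1.75). Tet3, the enzyme of this family that acts in the zygote, was higher, from 1.17 and 0.664 RPKM in the Undifferentiated lanes to 11.1 and 22.4 RPKM in the Differentiated lanes. Of 10 germ cell genes, 5 were lower, 0 higher and 5 between, with a median of -0.96. The germ cell factors Prdm14 (-2.18) and Tfap2c (-1.79) and the surface protein gene Ifitm1 (-2.77) had the largest differences. Among the 5 between, Ddx4 (0.21) and Kit (0.35), named after their values were seen, were higher, so the list did not differ as a whole.

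Zfp42 was high before differentiation and kept 3.42% of its level. It (chromosome 8, 44380421 to 44392363, minus strand, mm9) stood at 281 and 286 RPKM before and at 9.77 and 9.62 RPKM after. The lanes of each library lay close together. The gene was 29.2-fold lower with a log2 ratio of -4.73, at position 12 from the lowest among the 18019 genes. All 3 of its deposited forms belong to 1 promoter group. The first form held 80.0% before and 81.6% after, but in the Differentiated lanes its share was 92.5% and 70.5%, so no difference in shares exceeded the spread between lanes. Yy1 and Yy2, the closest relatives of Zfp42, did not follow it: Yy1 stood at 56.5 ± 2.95 RPKM before and 48.3 ± 1.65 RPKM after, and Yy2 at 3.11 RPKM and 2.72 RPKM. Of these 2 genes, 0 passed 2-fold in either direction, with a median of -0.18. The gene with the pattern nearest to Zfp42 over the 4 lanes, out of 12055 searched, was Tdgf1, a coreceptor of the ligand Nodal, at 227 RPKM before and 9.20 RPKM after, at a Euclidean distance of 0.50 in log2(RPKM + 1).

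Tcl1 was nearly absent after differentiation. It (chromosome 12, 106454965 to 106460947, minus strand, mm9) stood at 37.2 and 34.5 RPKM before and at 0.354 and 0.365 RPKM after. By reads this was about 3677 against 31 over both lanes. Its remaining level was 0.958%, with an exact interval of 0.650% to 1.36%, or 104-fold lower (73.4 to 154), under the limits given for Dppa3. Its log2 ratio of -4.76 was at position 11 from the lowest of all genes, next to Zfp42. The order of Tcl1 and Zfp42 turned with the processing: it was -6.29 and -4.86 with a pseudocount of 0.1, -2.93 and -4.30 with a pseudocount of 5, and -4.70 and -4.76 in lane 2. Zfp42 was also the lower of these under median-ratio, trimmed-mean and upper-quartile scaling. At the start it was no more abundant than Dppa2, whose lanes overlapped its own, yet Dppa2 kept 22.5% of its level and Tcl1 1.00%.

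The forms of Tcl1 were listed with different shares before and after. The second form, which skips an exon, held 12.8% and 6.97% of the gene in the Undifferentiated lanes and 94.8% in both Differentiated lanes. Both lanes of the Differentiated library rest on few reads, about 14.4 of the second form in each. The main form had about 0.848 in each, less than a whole read. The equal shares of these lanes are therefore not counted as a repeated measurement. In RPKM the second form was itself lower after, at 0.341 against 3.58, and the main form stood at 0.0187 against 32.2. The skipped exon has 70 bases, and its 57 coding bases, at chr12:105218236-105218292 of GRCm38 on the minus strand, are shown because they are what tells these forms apart.
Tcl1, skipped exon, coding part: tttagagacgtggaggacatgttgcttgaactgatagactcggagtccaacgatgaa
How the authors divided reads between forms is not given in the sources used here.

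**Figure D4:**
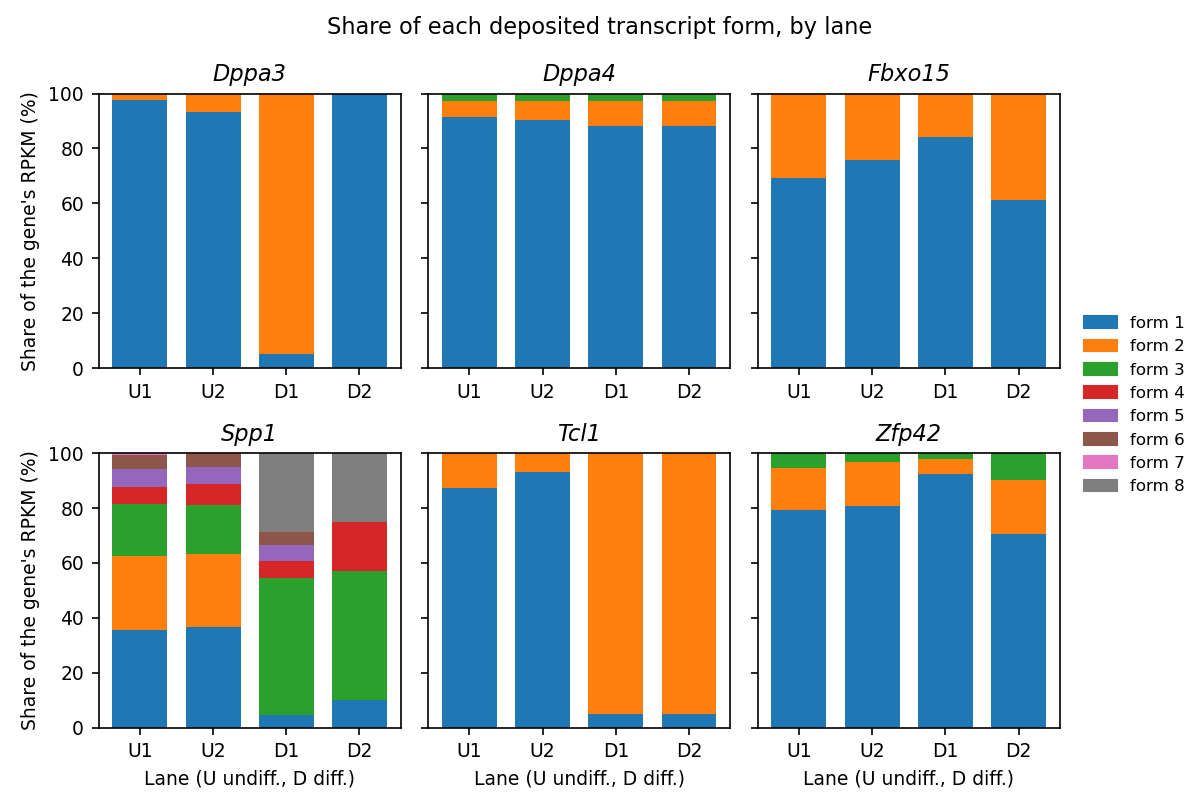
Share of each deposited transcript form in its gene's RPKM, in percent, for the 6 marker genes with 2 or more forms (U1 and U2 are Undifferentiated lanes, D1 and D2 Differentiated lanes). Dppa4 has 88.1% to 91.4% in form 1 over the 4 lanes, Tcl1 has 94.8% in form 2 after differentiation, and the lanes of Dppa3, Fbxo15 and Zfp42 in the Differentiated library differ from each other.

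The relatives of Tcl1 on the same cluster, Tcl1b1 to Tcl1b4, were below 1 RPKM in both libraries. Of 8 genes of the Tcl1 family and the Akt pathway at 1 RPKM or more, 1 was lower, 2 were higher and 5 lay between, with a median of 0.75. The lower gene was Eras, an ES cell Ras protein that activates PI3 kinase, at 27.2 ± 1.20 RPKM before and 2.66 ± 0.246 RPKM after (-2.95). Akt1, a kinase that Tcl1 binds, was higher, at 14.2 ± 0.412 RPKM before and 92.5 ± 0.609 RPKM after (2.62).

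Fbxo15 (chromosome 18, plus strand) stood at 162 and 157 RPKM before and at 17.3 and 16.7 RPKM after. The lanes of a library differed by a few percent, and the gene was 9.37-fold lower (log2 ratio -3.15). A second promoter held 30.8% and 24.0% of its level in the lanes before and 16% and 38.7% in those after, so the shares of the libraries overlapped. The neighbouring gene Cyb5, which encodes cytochrome b5, stood at 44.6 ± 1.46 RPKM before and 45.8 ± 3.40 RPKM after. Of 7 SCF ligase genes, 0 were lower and 0 higher by 2-fold, with a median of -0.37. The scaffold Cul1 stood at 46.6 RPKM before and 92.4 RPKM after (0.97), the adaptor Skp1a at 197 RPKM and 130.8 RPKM (-0.59), and Fbxo5, another F-box gene, at 29.7 RPKM and 18 RPKM (-0.69).

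L1td1 (chromosome 4, 98393439 to 98405177, plus strand, mm9) stood at 154 and 151 RPKM before and at 20.3 and 21.4 RPKM after. It was 7.33-fold lower (-2.82). Before differentiation its lanes lay just below those of Fbxo15, and after it they lay above them. Its nearest neighbour with an informative symbol was among the 2 higher ones: Inadl, a tight-junction scaffold gene 7144 bases away, stood at 3.47 and 5.70 RPKM before and at 34.3 and 32.7 RPKM after (2.63). Kank4, on its other side, stood at 1.62 RPKM and 2.97 RPKM (0.60). Of 6 genes of RNA-binding proteins that act with L1td1, 0 were lower, 1 was higher and 5 lay between. Igf2bp3 stood at 12.3 and 12.5 RPKM before and at 22.5 and 37.4 RPKM after (1.21), Trim71 at 39.2 RPKM and 20.3 RPKM (-0.92), and Igf2bp2 at 31.8 RPKM and 44.8 RPKM (0.48). Their median was 0.04.

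Spp1 (chromosome 5, 104864130 to 104870072, plus strand, mm9) was next to Zfp42 in abundance before differentiation, at 269 and 252 RPKM, and stood at 15.1 and 16.9 RPKM after. It was 16.3-fold lower (-3.94). In RPKM without a pseudocount, Tcl1, Dppa3 and Zfp42 were lower by larger factors. Its downstream start, the one whose window holds the octamer, lies 1081 bases from the upstream start in both builds. That start gave 1.80 and 1.09 RPKM in the Undifferentiated lanes, 0.554% of the gene, and 0.0230 and 0.0291 RPKM in the Differentiated lanes, 0.162% of the gene. Nearly all Spp1 signal was assigned to the upstream start in both libraries.

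Spp1 has 8 deposited transcript forms, and several differ by few bases. One difference is a 3-base exon, shown here with 18 bases on either side because so short a difference limits how 36-base reads can be assigned, with the exon in capitals.
Spp1, with the exon: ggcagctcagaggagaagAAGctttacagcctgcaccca
Spp1, without the exon: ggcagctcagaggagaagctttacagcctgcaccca
Summed over the 5 forms with this exon, the share was 53.4% and 54.9% in the lanes before differentiation, against 50.2% and 52.7% after it, where 2 of the 5 were placed through GENCODE's pairing of RefSeq and Ensembl transcripts. Whether those 2 forms hold the exon in the authors' annotation is not known here, and they make up 36.1% of the gene before and 34.4% after, so the similar sums rest on that placement. Single forms moved much more than this sum. The most abundant form before held 36.1% before and 7.56% after, while another form paired with the same Ensembl transcript was listed at 0 before and held 26.8% (4.29 RPKM) after. A form with 52 more bases in its first exon held 26.8% before and was listed at 0 in both Differentiated lanes. Another form, without the 3-base exon, held 18.5% before and 48.3% after. The division between such similar forms is uncertain.

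The receptors of osteopontin mostly differed in the other direction from Spp1. Among the 9 at 1 RPKM or more there were 7 higher, 1 lower and 1 within 2-fold, and the median was 1.39. Itgb1, the common beta subunit, stood at 55.7 and 62.5 RPKM before and at 306 and 293 RPKM after (2.32). Itgav stood at 5.15 ± 0.566 RPKM before and 37.4 ± 1.31 RPKM after (2.64), and Itga5 at 11.7 RPKM and 54.1 RPKM (2.12). The lower receptor subunit was Itga9 (-1.27), which is named after its value was seen. Of the bone matrix relatives of osteopontin, 0 of 3 matched genes reached 1 RPKM. Pkd2, a polycystin gene 18396 bases from Spp1, stood at 5.74 RPKM and 11.5 RPKM (0.90).

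**Figure D5:**
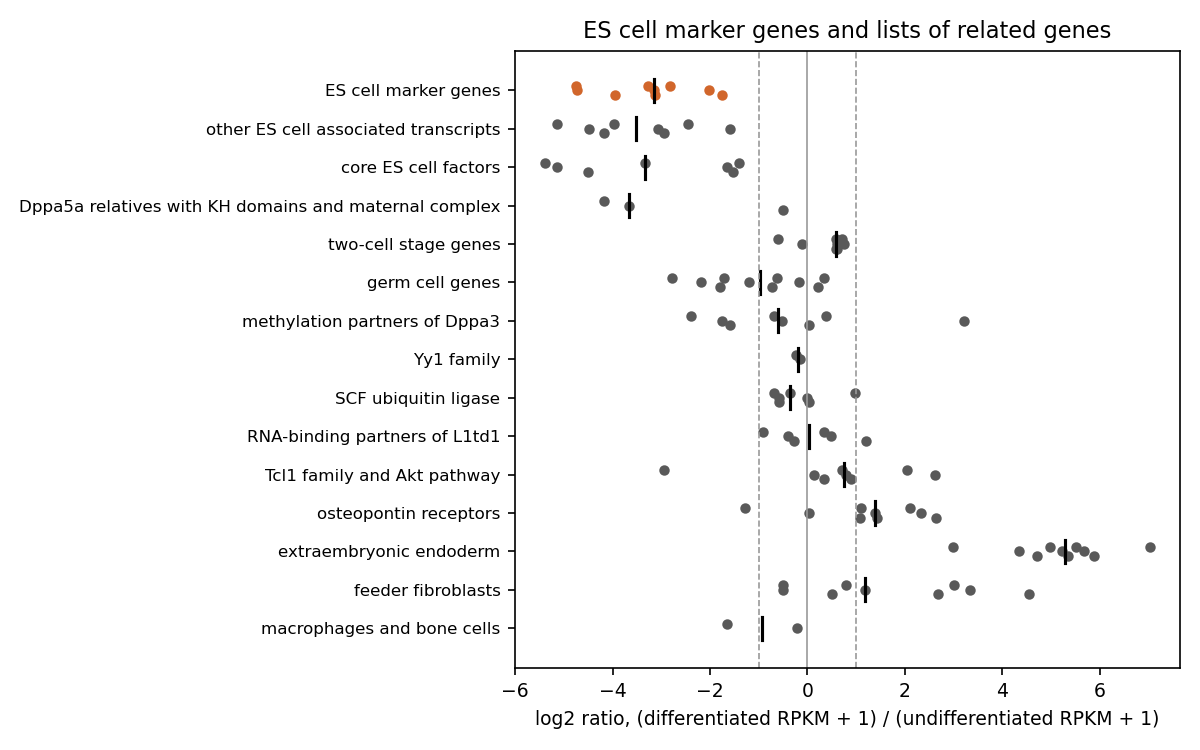
Log2 ratio of each gene at 1 RPKM or more in the lists of related genes and marker genes, 1 point per gene, with a tick at the median of each list and dashed lines at 2-fold. The ES cell marker genes (median -3.15), the other ES cell associated transcripts (-3.52) and the core ES cell factors (-3.34) lie wholly left of the lines, the extraembryonic endoderm list (5.29) lies wholly right of them, and each other list has at least 1 gene between them.

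Beyond the 9 members, 8 of 8 other ES cell associated transcripts at 1 RPKM or more were lower, with a median of -3.52, led by Nanog, Tdgf1 (-4.48) and Khdc3 (-4.18). All 7 core ES cell factors were lower, with a median of -3.34. Pou5f1, which binds the octamer, had 692 RPKM before and 29.5 RPKM after (-4.51). Esrrb had 163 RPKM and 2.93 RPKM (-5.38), and Klf4 had 174 RPKM and 54.8 RPKM (-1.65). These lists too hold known ES cell genes, so their direction is no independent evidence. The lists also overlap. Nanog is counted in both of these, and Khdc3, Eras and Dnmt3l are also counted in other lists above.

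The lists of genes of other cell types did not all differ in the same direction. The summed level of the 10 extraembryonic endoderm markers was 115 and 107 RPKM in the lanes before differentiation, against 6287 and 6389 RPKM after it, and 10 of 10 were higher with a median of 5.29. Sparc (57.1 to 2359 RPKM), Col4a1 (12.5 to 1755 RPKM), Lama1 (18 to 979 RPKM) and Lamb1 (17.4 to 843 RPKM), which encode matrix proteins, had the highest levels, and the factor Gata4 had a ratio of 5.89. The 10 fibroblast markers summed to 37.7 and 33.7 RPKM before and to 285 and 283 RPKM after. Of the 9 at 1 RPKM or more, 5 were higher and 4 lay between, with a median of 1.19. Col1a1 (12.3 to 133 RPKM), Pdgfra (1.14 to 49.2 RPKM), Col1a2 (6.69 to 48.6 RPKM) and Col3a1 (3.61 to 36.4 RPKM) were the highest. Thy1 (3.43 to 2.13 RPKM) and Postn (2.69 to 1.63 RPKM), named after their values were seen, were lower but within 2-fold. The Differentiated culture was plated without a feeder layer, and whether the RNA of these markers came from fibroblasts was not tested. Macrophage and bone cell markers were checked because those cells also make osteopontin. Only 2 of 9 reached 1 RPKM, with a median of -0.94: Alpl, which ES cells also express, at 52.1 RPKM and 15.9 RPKM, and Cd68 at 9.33 RPKM and 7.86 RPKM. The pan-leukocyte marker Ptprc was listed at 0 in the Differentiated library and the bone gene Ibsp at 0 in the Undifferentiated library. The part of these cell types in the ratios of the 9 members was not tested.

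The members' order of abundance was not the same before and after. Before differentiation it ran Dppa5a, Zfp42, Spp1, Fbxo15, L1td1, Dppa4, Dppa2, Tcl1 and Dppa3, and of neighbours in this order only Dppa2 and Tcl1 had overlapping lanes. After it, the order was Dppa5a, L1td1, Fbxo15, Spp1, Dppa4, Zfp42, Dppa2, Tcl1 and Dppa3, where the lanes of Spp1 overlapped those of Fbxo15 and of Dppa4. Zfp42 moved from the second place to the sixth. The highest and lowest members were 234-fold apart before and 1764-fold apart after. After differentiation 7 of the 9 were still at 1 RPKM or more.

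Genes with the pattern nearest to a member over the 4 lanes were named by their distance alone. For Dppa2 this was Impa2 at a distance of 0.20, for Dppa3 Msc at 0.14 and for Tcl1 Ndufa4l2 at 0.18. For L1td1 it was Ifitm1 at 0.31, a gene of the germ cell list, and for Spp1 it was Stmn2 at 0.29, at 248 RPKM before and 14.0 RPKM after. For Dppa5a no gene came close, and the nearest, Hsp90aa1, lay at 2.03, with 1424 RPKM before and 532 RPKM after.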

How the data were processed

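RNA sequencing values of 2 libraries were used, 1 per group, with 2 lanes each. Per the labels' protocols, libraries came from 5 µg of total RNA by an Illumina mRNA kit, were selected at about 250 bp and were read as 36 bp single-end reads. The authors deposited RPKM values per lane for genes, promoters and transcripts, and the submitters' processing notes name build mm9. The tables do not name the unit. It was read as RPKM. In 7925 single-exon genes, 82.3% to 82.6% of low values times length fell within 5% of whole reads. The value of 1 read was fitted in each lane, so this shows scaling by length, and the scaling by lane size is assumed. Aligner, counting program and annotation: not given in the sources used here. Positions count from 1. GRCm38 sequences come from RefSeq (promoters) and GENCODE M21 (transcripts) and were not mixed with mm9 positions. The kit does not record strand, so overlapping genes share reads.

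Ratios used a pseudocount of 1 RPKM, a floor of 1 RPKM in either library and a 2-fold line. No test was possible with 1 library per group. The computation was tested on simulated data. Members and lists were chosen with earlier results of these data known. Named were the 9 members, the 3 genes of each list with the largest absolute ratio, the 4 highest of the other-cell and core lists, genes within 100000 bases of a member, and the nearest pattern to each member. Some genes that this rule also names are not reported here. Matching of symbols ignored case and used RefSeq synonyms, and 5 listed genes (Dppa5b, Tcstv1, Tcstv3, Tcl1b5 and Mepe) were not matched. Alternatives were other pseudocounts, floors and scalings, single lanes and the highest transcript. Python 3.11.15, numpy 2.4.6, pandas 2.3.3, scipy 1.17.1 and matplotlib 3.10.9 were used.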

Additional observations from a re-analysis of the deposited data

How the results depend on the processing

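Of the alternatives, the floors and the summing of rows with the same symbol could not change a member's ratio. Nor could the highest transcript for Dppa2, Dppa5a and L1td1, which have 1 form each. With these included, each of the 9 members stayed at least 2-fold lower under all 12 alternatives run (108 of 108 values). Their median log2 ratio was -3.29 with a pseudocount of 0.1, -2.90 with a pseudocount of 5, -3.18 in lane 2, -3.12 from the highest transcript, -3.04 with equal column sums, -3.27 by median-ratio, -3.31 by trimmed-mean and -3.28 by upper-quartile scaling. The pseudocounts moved the low genes most, with Dppa3 between -5.34 and -1.43 and Tcl1 between -6.29 and -2.93. Spp1 reached -5.43 from its highest transcript alone and otherwise lay between -4.10 and -3.66. Scaling shifted the median of all genes by 0.21 (equal sums), -0.11 (median ratio), -0.14 (trimmed mean) and -0.11 (upper quartile). The 2-fold counts of the lists that moved by more than 1.5 times were these, and others moved by less. In lane 2, 1 gene of the KH and maternal list was higher and 1 gene of the SCF list was lower. In lane 1, 1 SCF gene was higher. With equal sums, 4 genes of the Tcl1 and Akt list and 1 of the SCF list were higher. Of the L1td1 partners, 1 gene was lower in lane 2 and under median-ratio, trimmed-mean and upper-quartile scaling. No paired analysis was possible because each group has 1 library. Shares of forms after differentiation rest on few reads for Dppa3 and Tcl1.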
